A study of Mus musculus with 10 samples.

Results

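The forkhead (Fox) transcription factor genes were taken from an RNA-seq count table of mouse progenitors with and without the adaptor gene Ldb1. Members were chosen by symbol alone, as genes named Fox followed by a subfamily letter from a to s and a number. The table held 43 of them among 21868 genes. All 43 had at least 1 read and 36 had a read in every library. Foxl1, the 1 other gene of that naming pattern in the name table, was not analysed here.

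The cells were grown as embryoid bodies from mouse embryonic stem cells in medium without LIF, and cells carrying Flk1, the VEGF receptor encoded by Kdr, were sorted. They are labelled as equivalents of the hemangioblast, the progenitor shared by blood and endothelium. The 2 groups were Ldb1+/+ cells (WT) and Ldb1-/- cells (KO), with 4 RNA libraries each and no treatment named for either. The labels state neither on which day embryoid bodies were taken for RNA nor how many cell clones were used, so loss of Ldb1 and another difference between the 2 lines of cells cannot be told apart. Setting KO against WT addresses the genes that need Ldb1, a protein that bridges DNA-bound factors into complexes.

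Forkhead factors share a winged-helix DNA-binding domain and are named by subfamily letter. FoxA proteins open chromatin in endoderm and axial mesoderm, FoxC and FoxF proteins act in mesoderm and vessels, and FoxH1 carries Nodal signals through Smad proteins at the primitive streak. FoxO proteins are held out of the nucleus by Akt when insulin-type signals are high, FoxM1 drives genes of cell division, and FoxP and FoxK proteins act mainly as repressors.

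Total counts were 11258493 to 13483294 per library. Within a genotype, libraries 1 and 2 were nearly as alike as counting noise allows, and so were libraries 3 and 4 (mean chi-square per gene 1.06 to 1.10 over all genes and 0.862 to 1.42 over Fox genes, where noise gives 1), while other pairs within a genotype had 12.8 to 28.5 over all genes. Each such pair was therefore summed and counted as 1 sample, A for libraries 1 and 2 and B for libraries 3 and 4, which left n = 2 per genotype. The letters follow library number, and a letter in WT is not shown to pair with the same letter in KO. The labels name no separate cultures for A and B, and the p-values therefore measure only how far these samples lie apart, which may be technical. Levels are in counts per 1000000 (CPM) after TMM scaling. Kdr, the gene of the sort marker, was present in all samples, with 440 and 605 CPM in the WT samples and 236 and 78.6 CPM in the KO samples. Ldb1 itself had 105 and 113 CPM in WT against 96.1 and 80.1 CPM in KO (-0.31 on the log2 scale, SE 0.15, edgeR adjusted p = 0.410). How the allele was disrupted is unstated, and reads outside a deleted part check nothing.

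Foxp4 stood about 2-fold higher in KO than in WT, Foxr1 and Foxk2 stood lower, and these 3 genes lay on the same side of both WT samples. The endoderm gene Foxa2, the mesoderm gene Foxf1 and the Nodal effector gene Foxh1 were instead high in WT sample B alone, with WT sample A below the KO samples or among them. Of the 3 genes named first, Foxk2 lies on chromosome 11, whose genes had a median log2 fold change of -0.47 in KO. With chromosome medians removed, the log2 fold change was -0.06 for Foxk2, 1.02 for Foxp4 and -0.88 for Foxr1. By edgeR's quasi-likelihood test 0 of the 35 Fox genes that passed the filter on low counts were called at an adjusted p of 0.05, where 0.125% of 16785 genes were called lower in KO and 0.0596% higher. At an unadjusted edgeR p under 0.05, 2 members lay lower (Foxk2, Foxr1) and 3 higher (Foxj1, Foxp4, Foxr2), against 7.86% and 7.61% of all genes. DESeq2 called Foxk2 and Foxr1 lower and Foxp4 higher, or 5.71% and 2.86% of the tested members against 3.55% and 3.41% of all genes (6.96% in either direction), so the members' shares lay near the background. The median log2 fold change of the tested members was 0.04, against -0.01 for all genes.

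Markers of several cell types differed between the genotypes in the same libraries. Of 10 blood markers, edgeR called 4 lower in KO (Gfi1b, Itga2b, Hba-x and Plek) and 0 higher, and their summed level was 243 and 297 CPM in WT A and B, against 61.9 and 43.9 CPM in KO A and B, with the globin gene Hbb-bh1 at 0 in both KO samples. Of 9 smooth muscle and mesenchyme markers, edgeR called 1 higher (Col1a2), with sums of 714, 996, 1716 and 3235 CPM in the same order. Of 6 neuroectoderm markers it called 1 higher (Nes), with sums of 252, 251, 455 and 424 CPM. The sums of 8 definitive endoderm markers were 1022, 1381, 2050 and 2690 CPM with 0 called. Most of that sum was the keratin genes Krt8 (log2 fold change 1.16) and Krt18 (1.22), while 5 of the 8 markers lay below 0, among them Sox17 (-1.43), Hhex (-1.33) and Cer1 (-1.12), and the median was -0.67. The 8 visceral endoderm markers summed to 76.8, 19.8, 24.4 and 10.9 CPM, also with 0 called. Most of the WT A sum was a single gene, Cubn, at 57.3, 5.59, 5.79 and 4.64 CPM in the same order. The 7 paraxial mesoderm markers summed to 15.7, 16.1, 10.1 and 9.95 CPM, with Msgn1 at 0 in WT A, KO A and KO B. In bulk RNA, fewer cells of a type and less RNA per cell cannot be told apart, and the part of these cell types in the values of Foxp4, Foxr1 and other Fox genes was not tested.

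**Figure D1:**
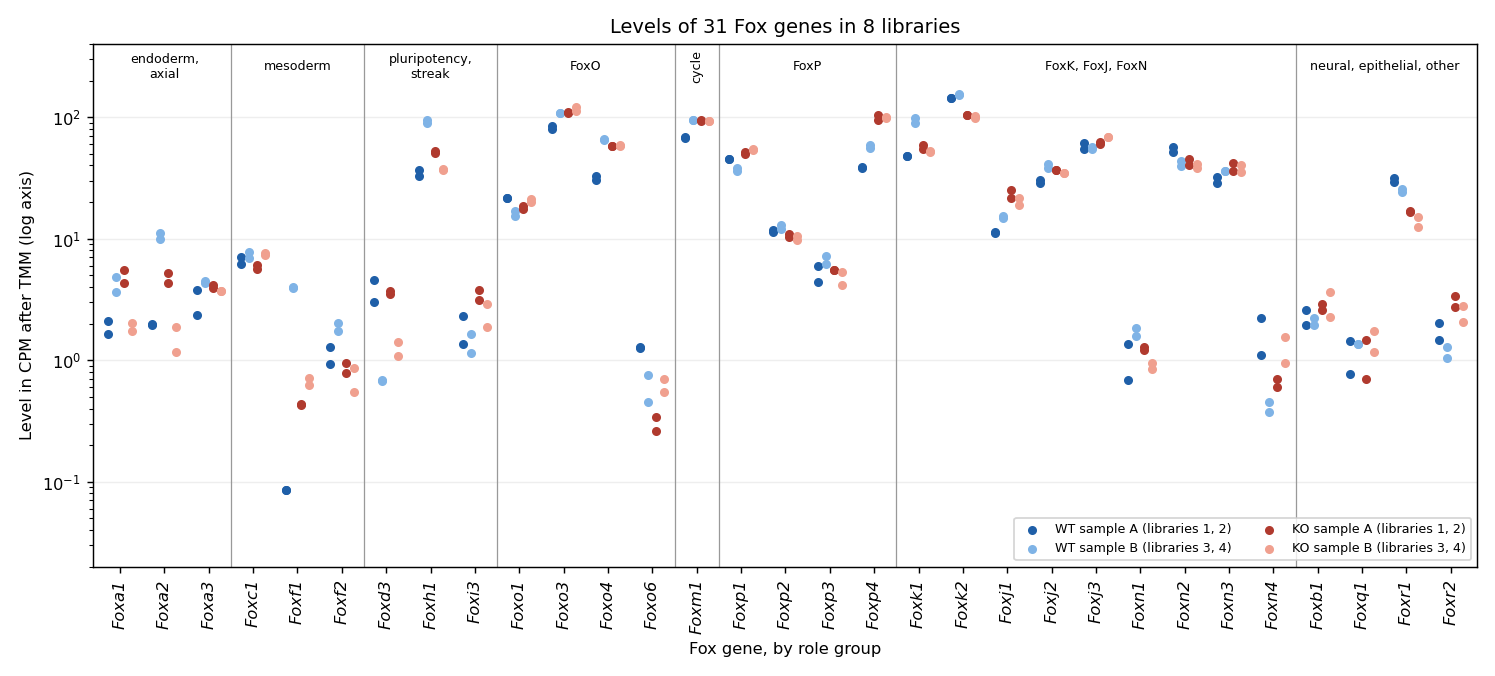
Level of 31 Fox genes (x axis, by role group) in CPM after TMM scaling (y axis, log scale), 1 point per library, coloured by genotype and sample. Points of 1 colour lie close together, Foxp4 is higher in all 4 KO libraries than in all 4 WT libraries, and Foxf1, Foxa2 and Foxh1 are highest in WT sample B.

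Of the 43 genes, 32 passed the filter and reached 1 CPM in at least 1 sample, and 31 of these are described singly. The KO group stood below both WT samples for 7 of these 32, above both for 10, and between them for the other 15. In 12 of the 15, KO lay above WT sample A and below WT sample B. The difference between the WT samples was larger in size than the difference between genotypes for 21 of the 32 genes. These counts were not made over all genes, so they are not shown to be particular to Fox genes. Over all genes the median size was 0.25 between WT samples and 0.23 between genotypes, against 0.52 and 0.35 over tested members. The measures are unlike, since the WT difference sets single samples against each other and the genotype difference sets averages of samples. Noise alone tends to make the WT difference the larger. The 21 of 32 genes and these medians therefore cannot decide whether WT samples varied more than the genotypes differed.

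The FoxP genes held the most widely separated member. Foxp4 (ENSMUSG00000023991), a repressor gene of developing lung and gut, stood at 38.5 and 57.6 CPM in WT A and B, against 99.8 and 98.9 CPM in KO A and B. All 4 KO libraries were above all 4 WT libraries, and the KO samples differed far less from each other than the WT samples did. The mean went from 48.0 ± 13.5 to 99.3 ± 0.640 CPM (SD, n = 2 per genotype), a 2.07-fold difference (log2 fold change 1.05, SE 0.21), with an edgeR adjusted p = 0.120 and a DESeq2 adjusted p = 0.00120. Without WT sample A the log2 fold change was 0.78 (edgeR adjusted p = 0.0131) and without WT sample B it was 1.37 (0.000465), whereas without KO sample A or B the adjusted p was 0.465 and 0.725. In these fits the lone sample is assumed to vary like the samples of the other genotype. Foxp1, a FoxP gene with roles in heart, lung and lymphocytes, stood at 45.5 and 37.1 CPM in WT, against 50.8 and 54.3 CPM in KO (0.35 on the log2 scale, SE 0.16, edgeR adjusted p = 0.383), again without overlap between libraries. Foxp2, known from brain development, was at 11.6 and 12.4 CPM in WT, against 10.6 and 10.1 CPM in KO (-0.21, SE 0.19). Foxp3, the factor gene of regulatory T cells, was at 4.76 to 6.68 CPM in the 4 samples (-0.21, SE 0.27), and its gene model overlaps those of Flicr and Ccdc22, whose reads may not be told apart from its own since strand use in counting is not stated.

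The make-up of the FoxP sum also differed between samples. Per length, that is in CPM per kb of the deposited transcript length, Foxp4 made up 50.2% and 61.9% of the FoxP sum in WT A and B and 70.9% and 70.2% in KO A and B. The share of Foxp1 was 33.8% in WT A and 20.6% to 22.7% in the other 3 samples, so the share in WT B was close to that in KO.

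Foxr1 and Foxr2, the members of a divergent subfamily, lay on opposite sides. Foxr1 (ENSMUSG00000074397) stood at 30.5 and 24.9 CPM in WT, against 16.8 and 13.8 CPM in KO, with every KO library below every WT library. Its log2 fold change was -0.86 (SE 0.20), a 1.81-fold lower KO level, with an edgeR adjusted p = 0.137 and a DESeq2 adjusted p = 0.0162. Without WT sample A the log2 fold change was -0.71 (edgeR adjusted p = 0.0619) and without WT sample B it was -0.99 (0.0118), while leaving out KO sample A or B gave an adjusted p of 0.425 and 0.777. The X-linked Foxr2 stood at 1.75 and 1.17 CPM in WT, against 3.07 and 2.42 CPM in KO (0.91, SE 0.36, edgeR adjusted p = 0.320). Its 4 KO libraries were all above the WT libraries, at levels near the lower end of what was tested.

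Foxk2 (ENSMUSG00000039275), which encodes a partner of the Sin3 corepressor and of the deubiquitinase Bap1, was the member with the most reads. It stood at 144 and 153 CPM in WT, against 104 and 101 CPM in KO, with no overlap between libraries and little spread within a genotype. The log2 fold change was -0.54 (SE 0.12), with an edgeR adjusted p = 0.137 and a DESeq2 adjusted p = 0.00941, and the edgeR adjusted p was 0.0448 with WT sample A left out and 0.106 with WT sample B left out. Leaving out KO sample A gave 0.465, and leaving out KO sample B gave 0.748. Foxk2 lies on chromosome 11, whose genes had a median log2 fold change of -0.47 in KO, while the other chromosome medians lay from -0.0016 to 0.25. With each chromosome's median removed, the log2 fold change of Foxk2 was -0.06 (edgeR adjusted p = 0.904). Its close relative Foxk1 stood at 48.1 and 93.4 CPM in WT, against 57.1 and 52.2 CPM in KO (-0.37, SE 0.33, edgeR adjusted p = 0.700), so the KO samples were near WT A. Per length Foxk2 made up 80.6% of the FoxK sum in WT A and 69.5% to 72.9% in the other 3 samples.

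For the 3 genes called by DESeq2, the 250 bases before the RefSeq transcription start (build GRCm38.p6) are shown 5′ to 3′ on the strand of the gene, with matches to any of 4 motifs in capitals on either strand. The motifs were the forkhead cores TGTTTAC and TGTTTGC, the GATA core AGATAA and the E-box CAGCTG, of which the last 2 belong to factor families that Ldb1 complexes contain.
Foxp4 (chr17:47924633-47924882, minus strand): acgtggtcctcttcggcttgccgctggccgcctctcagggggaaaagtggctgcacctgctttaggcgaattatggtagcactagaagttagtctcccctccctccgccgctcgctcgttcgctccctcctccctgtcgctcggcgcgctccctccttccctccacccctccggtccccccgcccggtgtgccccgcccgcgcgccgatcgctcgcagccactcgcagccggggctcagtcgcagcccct
Foxk2 (chr11:121259737-121259986, plus strand): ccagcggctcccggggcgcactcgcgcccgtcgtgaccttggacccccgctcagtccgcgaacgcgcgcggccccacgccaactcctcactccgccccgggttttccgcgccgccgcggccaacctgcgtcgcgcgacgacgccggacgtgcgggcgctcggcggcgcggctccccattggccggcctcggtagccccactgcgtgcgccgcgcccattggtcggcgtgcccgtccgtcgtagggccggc
Foxr1 (chr9:44440869-44441118, minus strand): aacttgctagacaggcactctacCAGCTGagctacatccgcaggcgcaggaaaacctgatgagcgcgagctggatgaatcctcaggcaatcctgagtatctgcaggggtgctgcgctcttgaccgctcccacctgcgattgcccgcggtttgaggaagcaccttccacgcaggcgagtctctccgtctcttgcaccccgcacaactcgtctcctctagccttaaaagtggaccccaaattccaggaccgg
The Foxp4 and Foxk2 windows held 0 matches, and the Foxr1 window held 1, the E-box 227 bases before the start. RefSeq windows were at hand for 28 of the 43 genes (33 windows). CAGCTG was in 4 of the 33 windows against 13.0% of all 32851 windows, AGATAA in 2 against 9.99%, TGTTTAC in 1 (Foxa1) against 3.17%, and TGTTTGC in 2 (Foxj3, Foxp1) against 4.30%. A match is a description of letters and no evidence of binding.

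**Figure D2:**
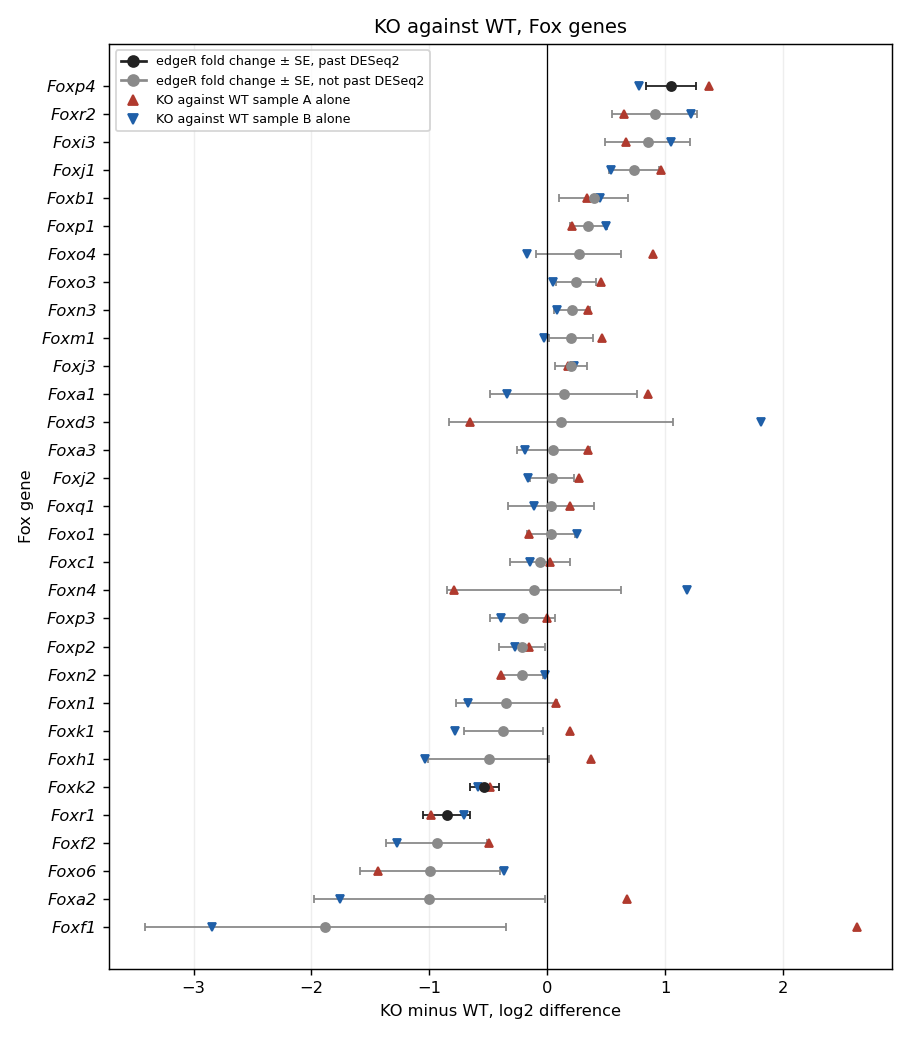
KO minus WT log2 difference (x axis) for 31 Fox genes (y axis), with the edgeR fold change and its SE as circles, dark for the 3 genes past DESeq2, and the value against each WT sample alone as triangles. For Foxp4, Foxr1 and Foxk2 both triangles lie on the side of the circle, whereas for Foxf1, Foxa2 and Foxh1 they lie on opposite sides of 0.

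Among the FoxJ and FoxN genes, Foxj1, the master gene of motile cilia, stood at 11.3 and 15.0 CPM in WT, against 23.5 and 20.3 CPM in KO. Its libraries did not overlap, and the log2 fold change was 0.74 (SE 0.21, edgeR adjusted p = 0.190, DESeq2 adjusted p = 0.0874). Like Foxk2 it lies on chromosome 11, yet on the other side of that chromosome's median, and with the median removed its value was 1.21 (edgeR adjusted p = 0.138). In all, libraries did not overlap for 3 members lower in KO (Foxk2, Foxp2, Foxr1) and 4 higher (Foxj1, Foxp1, Foxp4, Foxr2), or 8.57% and 11.4% of those tested, against 13.8% and 15.1% of all genes. Foxj2 (29.7 to 39.8 CPM over the 4 samples, 0.04, SE 0.19) and Foxj3 (55.8 to 69.1 CPM, 0.20, SE 0.13) differed little between genotypes. Foxn2 stood at 54.2 and 41.5 CPM in WT, against 42.7 and 39.6 CPM in KO (-0.22, SE 0.18), and Foxn3, a repressor gene tied to cell cycle checkpoints, at 30.3 and 36.1 CPM in WT, against 39.0 and 37.7 CPM in KO (0.21, SE 0.15). Foxn1, the gene of thymic epithelium mutated in nude mice, was at 0.898 to 1.70 CPM (-0.35, SE 0.42). Foxn4, a gene of retinal and spinal interneuron precursors, was at 1.66 and 0.415 CPM in WT, against 0.648 and 1.25 CPM in KO. A was thus the higher sample in WT and B in KO, letters that are not shown to pair samples across genotypes.

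The FoxO genes, which act downstream of insulin and growth factor signals, ranged from the abundant Foxo3 and Foxo4 to Foxo6 near the filter on low counts. Foxo3 stood at 82.7 and 109 CPM in WT, against 109 and 117 CPM in KO (0.24, SE 0.17, edgeR adjusted p = 0.595). Foxo4 stood at 31.4 and 65.3 CPM in WT, against 57.8 and 58.6 CPM in KO (0.27, SE 0.36, adjusted p = 0.828), with WT sample A apart from the other 3 samples. Without WT sample B its log2 fold change was 0.89 (edgeR adjusted p = 0.00863) and without WT sample A it was -0.17. Foxo1 was at 16.2 to 21.6 CPM over the 4 samples (0.03, SE 0.21). Foxo6, a FoxO gene of the nervous system, was at 1.28 and 0.604 CPM in WT, against 0.302 and 0.624 CPM in KO (-1.0, SE 0.59). Per length Foxo4 was the leading FoxO gene in each sample, at 42.6% of the FoxO sum in WT A and 53.5% to 59.2% in the other 3.

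Foxm1, which drives genes needed for mitosis, showed the same arrangement as Foxo4. Its gene model overlaps that of Tex52. It stood at 67.9 CPM in WT A, 94.8 CPM in WT B, and 94.2 and 92.8 CPM in KO A and B (0.20, SE 0.19, edgeR adjusted p = 0.712). A single WT sample was low, and the other 3 samples lay within a narrow range.

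**Figure D3:**
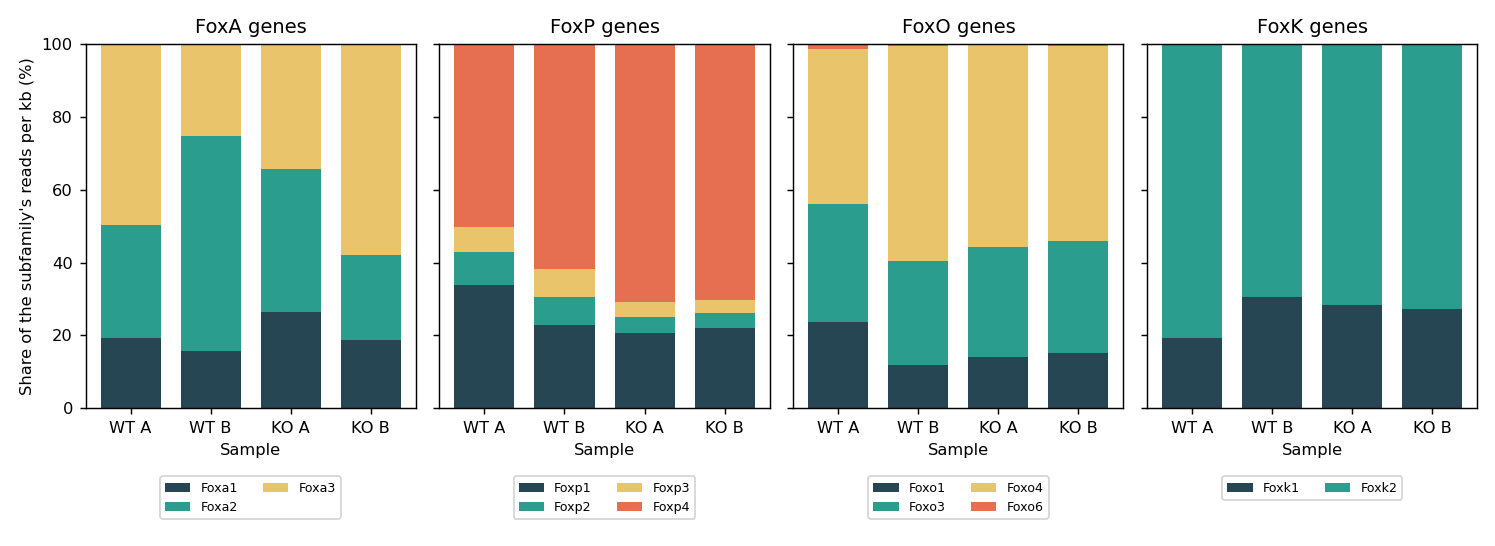
Share of each gene in the summed level per kb of its subfamily (y axis, percent) for the FoxA, FoxP, FoxO and FoxK genes in the 4 samples (x axis). Foxp4 takes 70.2% to 70.9% of the FoxP sum in KO against 50.2% and 61.9% in WT, and Foxa2 takes 59.1% of the FoxA sum in WT B.

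Of the factors of pluripotent cells and the primitive streak, Foxh1 (ENSMUSG00000033837) had the highest level per length of all 43 genes, with means of 48.2 CPM per kb in WT and 34.1 CPM per kb in KO. Its CPM level was 34.6 in WT A, 91.3 in WT B, 52.0 in KO A and 37.2 in KO B. WT sample B was thus apart, at 2.64 times WT A (95% exact counting interval 2.43 to 2.86), and KO B was near WT A. The genotype comparison gave -0.50 (SE 0.51, edgeR adjusted p = 0.754), with -1.04 (adjusted p = 0.00898) without WT sample A and 0.37 without WT sample B. The gene model of Foxh1 overlaps that of Kifc2, which stood at 15.4, 28.7, 19.2 and 16.8 CPM in the same order, and without strand information their shared reads cannot be told apart. Foxd3, a gene of pluripotent cells and neural crest, stood the other way, at 3.80 CPM in WT A and 0.679 CPM in WT B, and at 3.59 and 1.25 CPM in KO A and B. WT A was 5.59 times WT B (interval 3.34 to 9.86) and KO A was 2.87 times KO B (1.89 to 4.46). B was thus below A in each genotype, though these letters are not shown to pair samples across genotypes. Foxi3, placed in this role group although it is a gene of ectodermal placodes, was at 1.84 and 1.40 CPM in WT. In KO it stood at 3.46 and 2.38 CPM (0.85, SE 0.36, edgeR adjusted p = 0.347).

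The FoxA genes, pioneer factors of endoderm, varied more within a genotype than between them. Foxa2 (ENSMUSG00000037025), which marks axial mesoderm and definitive endoderm, stood at 1.96 CPM in WT A and 10.5 CPM in WT B, and at 4.75 and 1.52 CPM in KO A and B. WT B was 5.36 times WT A (interval 3.92 to 7.50), while KO B was 3.12 times lower than KO A (2.15 to 4.62). Foxa1 overlapped by the Ttc6 gene model, followed a similar order, at 1.88, 4.26, 4.92 and 1.87 CPM, and Foxa3 was more even, at 3.07, 4.42, 4.06 and 3.71 CPM in the same 4 samples. The genotype comparison gave -1.0 (SE 0.98) for Foxa2, 0.14 (SE 0.62) for Foxa1 and 0.05 (SE 0.31) for Foxa3, with edgeR adjusted p values of 0.736, 0.954 and 0.965. Foxa2 without WT sample B gave 0.67 and without WT sample A -1.76. Of the 3 RefSeq starts of Foxa2, the following window is shown because it held 1 of the 2 AGATAA matches among Fox genes, 183 bases before the start, in capitals.
Foxa2 (chr2:148045465-148045714, minus strand): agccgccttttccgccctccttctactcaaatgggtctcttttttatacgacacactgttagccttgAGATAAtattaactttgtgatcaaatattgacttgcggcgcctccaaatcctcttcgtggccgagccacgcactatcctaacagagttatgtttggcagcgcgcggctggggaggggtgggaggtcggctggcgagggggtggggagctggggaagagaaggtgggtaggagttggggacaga

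Of the mesoderm factors, Foxf1 (ENSMUSG00000042812), a gene of lateral plate and extraembryonic mesoderm and its vessels, had the widest range. It had 2 reads in WT A and 105 in WT B, or 0.0854 and 3.96 CPM, and 10 and 17 reads in KO A and B, or 0.432 and 0.663 CPM. The ratio of WT B to WT A was 46.4 with an exact counting interval from 12.5 to 388, and the KO samples lay between the WT samples. The genotype comparison gave -1.88 (SE 1.53, edgeR adjusted p = 0.669), against -2.84 (adjusted p = 0.000835) without WT sample A and 2.62 (0.133) without WT sample B. Foxf1 lies on chromosome 8, whose median log2 fold change was 0.25. Foxf2, its relative in mesenchyme, stood at 1.11 and 1.89 CPM in WT, against 0.864 and 0.702 CPM in KO (-0.94, SE 0.43, edgeR adjusted p = 0.383). Foxc1, a gene of paraxial mesoderm and vessels that lies beside Foxq1 and Foxf2 on chromosome 13, was at 5.87 to 7.49 CPM over the 4 samples (-0.06, SE 0.25), and Foxq1 was at 1.08 to 1.44 CPM (0.03, SE 0.37). Foxc2, which lies near Foxf1 on chromosome 8, stayed below 1 CPM and had 9 and 23 reads in WT A and B and 17 and 8 in KO A and B.

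Among the neural genes, Foxb1, a gene of the neural tube and hypothalamus, was at 2.26 and 2.08 CPM in WT, against 2.76 and 2.93 CPM in KO (0.39, SE 0.29). Foxc2, Foxd1 and Foxd4 passed the filter below 1 CPM in every sample, with 40 to 61 reads over all libraries. Foxb2, Foxd2, Foxe1, Foxe3, Foxi1, Foxi2, Foxl2 and Foxs1 did not pass it, with 1 to 28 reads over all libraries, and differences in them were not detectable at this depth.

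Between the WT samples the Fox genes differed widely. WT B was at least 2-fold above WT A for 7 of the 35 tested members (Foxa1, Foxa2, Foxc2, Foxd4, Foxf1, Foxh1, Foxo4), or 20%, against 4.01% of all genes, and at least 2-fold below it for 4 (Foxd1, Foxd3, Foxn4, Foxo6), or 11.4%, against 6.19%. The median size of the log2 difference was 0.52 over the tested members and 0.25 over all genes. Some of these genes have few reads. Libraries 1 and 2 and libraries 3 and 4 repeat a sample each, so there is no replicate for this difference, no test was made, and intervals cover counting error only.

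Other cell type markers differed between the same WT samples. Of 9 primitive streak markers, 8 were at least 2-fold higher in WT B and their summed level was 36.1 CPM in WT A, 245 CPM in WT B and 81.6 and 64.1 CPM in KO A and B. Of 8 cardiac mesoderm markers, 5 were at least 2-fold higher in WT B, with sums of 42.7, 275, 43.7 and 30.2 CPM in the same order. Of 9 pluripotency markers, 8 were at least 2-fold lower in WT B, with sums of 1396, 388, 681 and 781 CPM. Nodal, the remaining streak marker, was lower in WT B (16.5 and 8.94 CPM in WT A and B). So was the cardiac marker Mef2c (15.2 and 10.8 CPM). Eomes alone gave 116 CPM of the streak sum in WT B, and the cardiac marker Nkx2-5 was below 1 CPM in every sample. No marker of these 3 lists was at 0 in any sample. The part of this difference between the WT samples in the values of Foxa2, Foxf1, Foxh1 and Foxd3 was not tested.

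**Figure D4:**
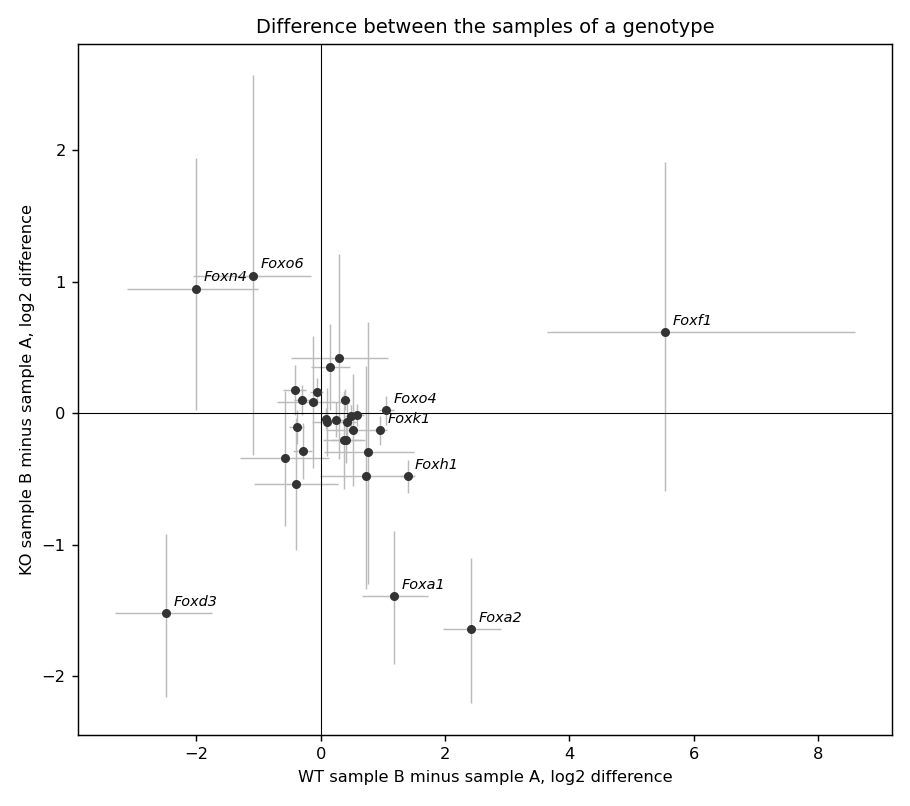
Log2 difference of sample B minus sample A in WT (x axis) and in KO (y axis) for 31 Fox genes, with 95% exact counting intervals as grey lines. Most genes lie near 0 on the y axis, Foxf1 and Foxa2 lie far to the right, Foxa1 and Foxa2 are higher in B in WT and lower in B in KO, and Foxd3 is lower in B in both.

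The KO samples differed less from each other. For 27 of the 32 genes the difference between WT samples was larger in size than that between KO samples, a count not made over all genes. Over all genes the median size was 0.25 in WT and 0.21 in KO, against 0.52 and 0.20 over tested members. KO B was at least 2-fold below KO A for Foxa1, Foxa2, Foxc2 and Foxd3, or 11.4% of tested members against 2.66% of all genes, and at least 2-fold above it for Foxo6 alone, or 2.86% against 1.75%. Foxc2 had 8 reads in KO B against 17 in KO A, and Foxo6 had 16 against 7. Their exact counting intervals include 1 (0.159 to 1.04 and 0.804 to 5.93), so counting error alone may place them here. The shares over all genes were not matched for level. In KO, 5 of 9 primitive streak markers and 3 of 8 definitive endoderm markers were also at least 2-fold lower in B than in A. The same held for 6 of 10 endothelial and 3 of 8 visceral endoderm markers, and none of these lists had a marker 2-fold higher. Of 9 smooth muscle and mesenchyme markers, 3 were at least 2-fold higher in KO B and 0 lower. The part of those markers in the values of Foxa1 and Foxa2 was not tested.

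Partner and target genes of Fox factors were counted in 9 lists, and edgeR called 0 of their genes at an adjusted p of 0.05, so counts are given at an unadjusted edgeR p under 0.05 and by DESeq2. Over all genes these took 7.86% lower and 7.61% higher by the first and 3.55% and 3.41% by the second. Among FoxO target genes, of 20 tested, 6 lay higher and 0 lower at that unadjusted p, DESeq2 called 4 higher and 0 lower, and the median log2 fold change was 0.20. The 4 genes, like the other DESeq2 calls named for these lists, are named after their values were seen. They were the cell cycle inhibitor gene Cdkn1b (0.68, SE 0.19), the death gene Bcl2l11 (0.65, SE 0.13), the stress gene Gadd45b (0.97, SE 0.27) and the insulin signalling gene Irs2 (0.93, SE 0.31). The most abundant were Txnip, an inhibitor of thioredoxin (933 ± 75.1 CPM in WT, 840 ± 40.9 CPM in KO, -0.15, SE 0.13), and the catalase gene Cat (111 ± 12.5 and 128 ± 9.45 CPM, 0.20, SE 0.14). Of 15 upstream regulators of FoxO proteins, 1 lay lower and 1 higher (DESeq2 1 lower, the kinase gene Sgk1, and 0 higher, median 0.03), with the 14-3-3 gene Ywhaz at 0.18 (SE 0.12) and the deubiquitinase gene Usp7 at -0.04 (SE 0.17). Foxm1 target genes stayed near 0 as a list, with 2 of 15 lower (Aurkb and Birc5) and 0 higher by either count and a median of -0.07. Both genes, at -0.56 and -0.61, lie on chromosome 11 with its median of -0.47, and the mitotic genes Ccnb1 and Cenpf were at 0.03 (SE 0.13) and -0.12 (SE 0.17).

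Among 16 genes of the Nodal pathway in which Foxh1 acts, 2 lay lower and 1 higher at the unadjusted p, DESeq2 called Tdgf1 lower and Nodal higher, and the median was 0.03. Smad4, the shared Smad gene, stood at 0.06 (SE 0.17) and the Nodal coreceptor gene Tdgf1 at -0.58 (SE 0.13, edgeR adjusted p = 0.137, DESeq2 adjusted p = 0.0104). Of 17 tested axial mesoderm and endoderm genes tied to Foxa2, 2 lay lower and 4 higher, DESeq2 called 2 lower (Hhex among them) and 2 higher (Cldn6, Cdh1), and the median was -0.43. The epithelial genes Cdh1 (502 ± 150 CPM in WT, 1078 ± 28.0 CPM in KO, 1.10, SE 0.22, edgeR adjusted p = 0.123) and Cldn6 (99.9 ± 3.47 and 311 ± 76.2 CPM, 1.64, SE 0.20, edgeR adjusted p = 0.0689) were its most abundant members. Of 13 hedgehog genes, which act upstream of Foxf1, 1 lay lower and 2 higher (DESeq2 0 lower and Gli3 and Cdon higher, median -0.34), with the receptor genes Smo at 0.35 (SE 0.33) and Ptch1 at -0.65 (SE 0.27).

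Partner and target genes of FoxC proteins lay mostly below 0, with 15 of 16 tested below it, 4 lower and 0 higher at the unadjusted p, 1 lower (the chemokine receptor gene Cxcr4) and 0 higher by DESeq2, and a median of -0.69. Its most abundant members were the sort marker gene Kdr (-1.73, SE 0.59, edgeR adjusted p = 0.289), whose level is no finding of its own, and Notch1 (-0.42, SE 0.16). The 10 endothelial markers, 3 of which are on that list (Kdr, Cdh5, Tek), summed to 1332 and 1094 CPM in WT A and B, against 811 and 350 CPM in KO A and B. No endothelial marker was at 0, and the part of this in the FoxC list was not tested. Foxc1 itself differed by less than its SE. Of the cilia genes downstream of Foxj1, 10 of 11 tested lay below 0, with 0 lower and 1 higher at the unadjusted p, 0 and 0 by DESeq2, and a median of -0.43. The gene past that p was the tubulin gene Tuba1a (0.40, SE 0.14), which is used far beyond cilia, and next in abundance was the factor gene Rfx2 (-0.47, SE 0.74). Of 15 corepressor genes that bind Fox proteins, 0 lay lower and 1 higher (Hdac1 by both tools, median 0.08), with Hcfc1 at 0.08 (SE 0.16) and the deacetylase gene Hdac1 at 0.45 (SE 0.13, edgeR adjusted p = 0.182, DESeq2 adjusted p = 0.0381).

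The order of Fox genes per length differed between genotypes. In WT the leading genes were Foxh1 (48.2 CPM per kb), Foxk2 (27.7), Foxo4 (24.4), Foxm1 (18.7), Foxr1 (16.6), Foxo3 (14.0) and Foxp4 (12.0). In KO they were Foxh1 (34.1), Foxo4 (29.4), Foxp4 (24.8), Foxm1 (21.4), Foxk2 (19.1), Foxo3 (16.5) and Foxn3 (13.8). From WT to KO, Foxp4 went from rank 7 to rank 3, Foxr1 from 5 to 9, Foxk1 from 10 to 15, Foxj1 from 15 to 10, Foxi3 from 22 to 16 and Foxf1 from 17 to 28. The falls of Foxf1 and Foxk1 rest on WT sample B. Foxf1 stood at 0.0804 and 3.73 CPM per kb in WT A and B, against 0.407 and 0.625 in KO A and B. Foxk1 stood at 6.5 and 12.5 CPM per kb in WT, against 7.7 and 7.0 in KO. For both genes the KO samples thus lay between the WT samples. Neighbouring ranks were often closer than the spread between samples, and Foxh1 in WT ranged from 26.5 to 69.9 CPM per kb, so its first place held in WT B and KO A, while Foxk2 was slightly above it in WT A and Foxo4 in KO B.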

How the data were processed

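RNA-seq reads per Ensembl gene were deposited by the authors as a table of raw counts for 8 libraries, per the file headers. The submitters' processing notes name mm9 and DESeq, and no source used here gives the aligner, the counting tool or its strand setting. Of 21868 genes, 20362 matched a symbol. The Fox genes, gene lists and alternatives were chosen with earlier results of these data known. Library pairs within sampling noise (chi-square per gene, minimum 20 reads) were summed, giving 22674679 to 26775787 counts per sample.

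After filterByExpr and TMM scaling, summed counts entered the robust quasi-likelihood test of edgeR 4.0.16 in R 4.3.3, with Benjamini-Hochberg adjustment over 16785 genes and a threshold of 0.05. For a single value, 2 samples against 2 cannot give an exact two-sided permutation p below 0.333. The SE given is the size of the log2 fold change divided by the square root of the test's F statistic, not an error reported by the fit. Sample B was set against sample A with exact binomial 95% intervals. DESeq2 1.42.0, voom of limma 3.58.1, other scalings and filters, a replicate block, chromosome medians and left-out libraries and samples were alternatives. For chromosome medians, genes above a mean log2 CPM of 3 were taken. On simulated data (3 runs of 16785 genes for KO against WT) edgeR found 38% of the simulated 2-fold changes and 87.3% at 4-fold. It found 100% at 8-fold and 99.3% at 16-fold, with 29 false calls in all. Changes were placed only in genes above a minimum mean count. Spread followed the general trend with level, not each gene's own spread. Recovery among Fox genes with few reads or a wide spread was therefore not measured.

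Every Fox gene that was tested and reached 1 CPM in a sample is named, except 1 that is counted but not reported singly here. From each list of partner and target genes the 2 most abundant are named, along with any gene past the edgeR test, of which there were none. Most DESeq2 calls of these lists were added after the values were seen. Genes past the unadjusted p alone were not added for that reason. RefSeq promoters and gene overlaps are from GRCm38.p6. The planned search for Ldb1 peaks at Fox genes was not run, since the peak list is in mm9 and no mm9 annotation was used, and protein identities were not computed. Python 3.11.15, pandas 2.3.3, numpy 2.4.6, scipy 1.17.1 and matplotlib 3.10.9 were used.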

Additional observations from a re-analysis of the deposited data

How the results depend on the processing

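The number of calls in KO against WT differed widely between settings. Over all genes edgeR called 31. The number was 1168 with DESeq2, 3 with limma-voom, 151 without a filter on low counts, 5 with a filter of 1 CPM, 3860 with 8 libraries fitted separately and 2 at an adjusted p of 0.01. Leaving out a WT sample gave 1537 (A left out) or 1674 (B left out), and leaving out either KO sample gave 0, the lone sample being assumed to vary like the other genotype. Leaving out single libraries gave 22 to 40. With the replicate block the number was 5. The B minus A differences of WT and KO had a correlation of -0.0857 across 16763 genes, over 2 pairs, so the numbers are not shown to pair samples.

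Of the Fox genes, edgeR called 0. The number was 3 with DESeq2, 7 with 8 libraries fitted separately, 5 without WT sample A (Foxf1, Foxh1, Foxk1, Foxk2 and Foxp4) and 4 without WT sample B (Foxj1, Foxo4, Foxp4 and Foxr1), and it was 0 with the replicate block and without any single library. The cause of these differences was not tested. The Fox genes tested were 35 of 16785 genes with DESeq2 and 30 of 15589 with 8 libraries fitted separately. They were 36 of 17211 without WT sample A and 36 of 17200 without WT sample B. The number over all genes also rose in each of these settings, so the calls are not shown to be particular to Fox genes.

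Log2 fold changes of Foxp4, Foxr1, Foxk2, Foxj1 and Foxr2 kept their direction under every alternative listed here. So did those of the other named genes, apart from the 15 for which KO lay between the WT samples. Foxk2 kept its direction with a value of only -0.06 once chromosome medians were removed. Without WT sample B the sign turned for Foxf1 (2.62), Foxa2 (0.67), Foxh1 (0.37), Foxk1 (0.19), Foxn1 (0.069), Foxc1 (0.021), Foxd3 (-0.66) and Foxo1 (-0.16). Without WT sample A it turned for Foxn4 (1.18), Foxa1 (-0.34), Foxa3 (-0.19), Foxo4 (-0.17), Foxj2 (-0.17), Foxq1 (-0.11) and Foxm1 (-0.028). Without KO sample A it turned for Foxd3 (-0.83), Foxa1 (-0.71), Foxn4 (0.28), Foxc1 (0.11) and Foxa3 (-0.010), and without KO sample B for Foxq1 (-0.19) and Foxo1 (-0.061). Library size scaling gave Foxo1 -0.0034 and Foxq1 -0.00500, removal of chromosome medians gave Foxn1 0.12 and Foxo1 -0.0034, and Foxn4 was 0.15 with limma-voom and 0.054 with the replicate block. Leaving out single libraries gave ranges across 0 for Foxd3 (-0.053 to 0.47), Foxa1 (-0.020 to 0.32), Foxq1 (-0.15 to 0.23), Foxa3 (-0.084 to 0.16) and Foxn4 (-0.40 to 0.43).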
